A study of Homo sapiens with 12 samples.

Results

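The proteins of the BCL2 family decide whether the outer membrane of the mitochondrion is opened, the step at which cytochrome c leaves the organelle and caspases are switched on. Anti-apoptotic members hold the effectors BAX and BAK in check, and BH3-only members, which share with the rest of the family only a short helix called the BH3 domain, release or activate those effectors. In acute myeloid leukemia (AML) the family is known as the target of BH3 mimetics, drugs that occupy the groove of BCL2 or MCL1 in place of a BH3 helix. DNA damage is known to act on the family by switching on BBC3, PMAIP1 and BAX.

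The 10 genes described here were named as a list of anti- and pro-apoptotic BCL2 proteins, with no threshold on a measured value. The anti-apoptotic genes are BCL2, BCL2L1 (BCL-XL), MCL1 and BCL2A1 (BFL-1), the effectors are BAX and BAK1, and the BH3-only genes are BCL2L11 (BIM), BMF, BBC3 (PUMA) and PMAIP1 (NOXA). They were 10 of 60709 gene identifiers in the files and 10 of 19868 protein-coding genes of GENCODE annotation level 1 or 2, and all 10 passed the filter on low counts that left 13422 genes in the tests.

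RNA was sequenced from 2 human AML cell lines after 36 h with or without duocarmycin SA (DSA), an antibiotic that lies in the minor groove of DNA and alkylates adenine. HL-60 cells received 112.7 pM or 500 pM DSA and Molm-14 cells 11.1 pM or 100 pM DSA, and each line had its own control, which the sample labels call untreated and the methods of the study call vehicle. Each of the 6 groups had 2 libraries. HL-60 is an established line of promyelocyte-like AML cells, and Molm-14 is an established line with a KMT2A (MLL) fusion. The lines were grown in different media, IMDM for HL-60 and RPMI for Molm-14, with different shares of fetal bovine serum, so line and medium cannot be told apart in any comparison between them, nor, where DSA was given, can dose. No source states that the 2 libraries of a group came from separate cultures, so p-values measure the spread between these libraries, which may be technical.

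Library totals lay between 21177424 and 63927449 expected counts, with a median of 35957896.5. In HL-60 the control libraries were the deepest, at 40518695 and 63927449, against 21177424 to 32012199 in the 4 DSA libraries. The share of counts on mitochondrially encoded mRNA was 2.02 and 2.26% in HL-60 controls, 3.30 and 3.41% at 112.7 pM and 4.84 and 4.09% at 500 pM, and 1.23 and 1.41% in Molm-14 controls, 2.07 and 1.99% at 11.1 pM and 3.46 and 2.30% at 100 pM. The 4 promyelocyte granule markers (MPO, ELANE, PRTN3, AZU1) summed to 18240 to 18500 CPM (counts scaled to library totals, as normalized by TMM) in HL-60 controls, 13930 to 14300 at 112.7 pM and 6522 to 6544 at 500 pM, and to 3073 to 3189 CPM in Molm-14 controls, 3059 to 3256 at 11.1 pM and 3572 to 3680 at 100 pM. The 3 MLL-fusion markers (HOXA9, HOXA10, MEIS1) summed to 258.5 to 264.2 CPM in Molm-14 controls, 254.9 to 269.6 at 11.1 pM and 244.2 to 246.4 at 100 pM. In HL-60 they summed to 4.12 to 4.32 CPM in controls, 4.53 to 4.97 at 112.7 pM and 5.29 to 5.35 at 500 pM. The 7 myeloid markers summed to 2598 to 2641 CPM in Molm-14 at 100 pM, against 1763 to 1794 CPM in controls. In HL-60 they summed to 1677 to 1691 CPM in controls, 1873 to 1884 at 112.7 pM and 1667 to 1716 at 500 pM. The 4 T cell markers summed to 2.67 to 2.83 CPM in HL-60 at 500 pM, against 0.322 to 0.349 CPM in controls, the 3 B cell markers to 5.34 to 5.87 CPM against 2.55 to 2.58 CPM, and the 6 epithelial and fibroblast markers to 4.36 to 4.82 CPM against 0.831 to 1.23 CPM (35.9 to 40.9 CPM in Molm-14). The 4 erythroid markers reached at most 0.0536 CPM. A filter on low counts left only 1 of the 4 T cell, 1 of the 3 B cell and 4 of the 6 epithelial and fibroblast markers in the tests. In HL-60 depth and the granule, MLL-fusion, T cell, B cell and epithelial and fibroblast sums thus moved with DSA, and the myeloid sum did at 112.7 pM. The myeloid, granule and MLL-fusion sums moved in Molm-14 at 100 pM, and the mitochondrial share moved in both lines. The part of these shifts in the results below was not tested. The 4 granule markers did not move as a group in Molm-14 at 100 pM. There 1 was called higher and 1 lower, against 22.9% and 21.9% of all genes, with a median log2 change of 0.011. In bulk RNA, fewer cells of a type and less RNA per cell cannot be told apart.

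At the high dose of each line BCL2A1, BAX, BAK1, BMF and BBC3 rose in both lines, as 14.3% of all genes tested did, and BCL2 fell in both, as 14.9% did. BAK1 moved little, by 0.10 in HL-60 and 0.15 in Molm-14 on the log2 scale. Its calls in both lines, and that of BBC3 in Molm-14, were lost under some other settings. The largest rises were in HL-60 at 500 pM, for BMF (4.23-fold), BCL2A1 (3.41-fold) and BBC3 (2.41-fold). In Molm-14 at 100 pM, BCL2A1 (2.23-fold) and BAX (1.61-fold) rose most. MCL1 and PMAIP1 rose in Molm-14 and BCL2L1 in HL-60. A gene was called where edgeR's quasi-likelihood test, fitted over all 12 libraries, gave an adjusted p under 0.05 (Benjamini-Hochberg over 13422 genes), and fold changes are given on the log2 scale with their standard error (SE) unless named as a fold.

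**Figure D1:**
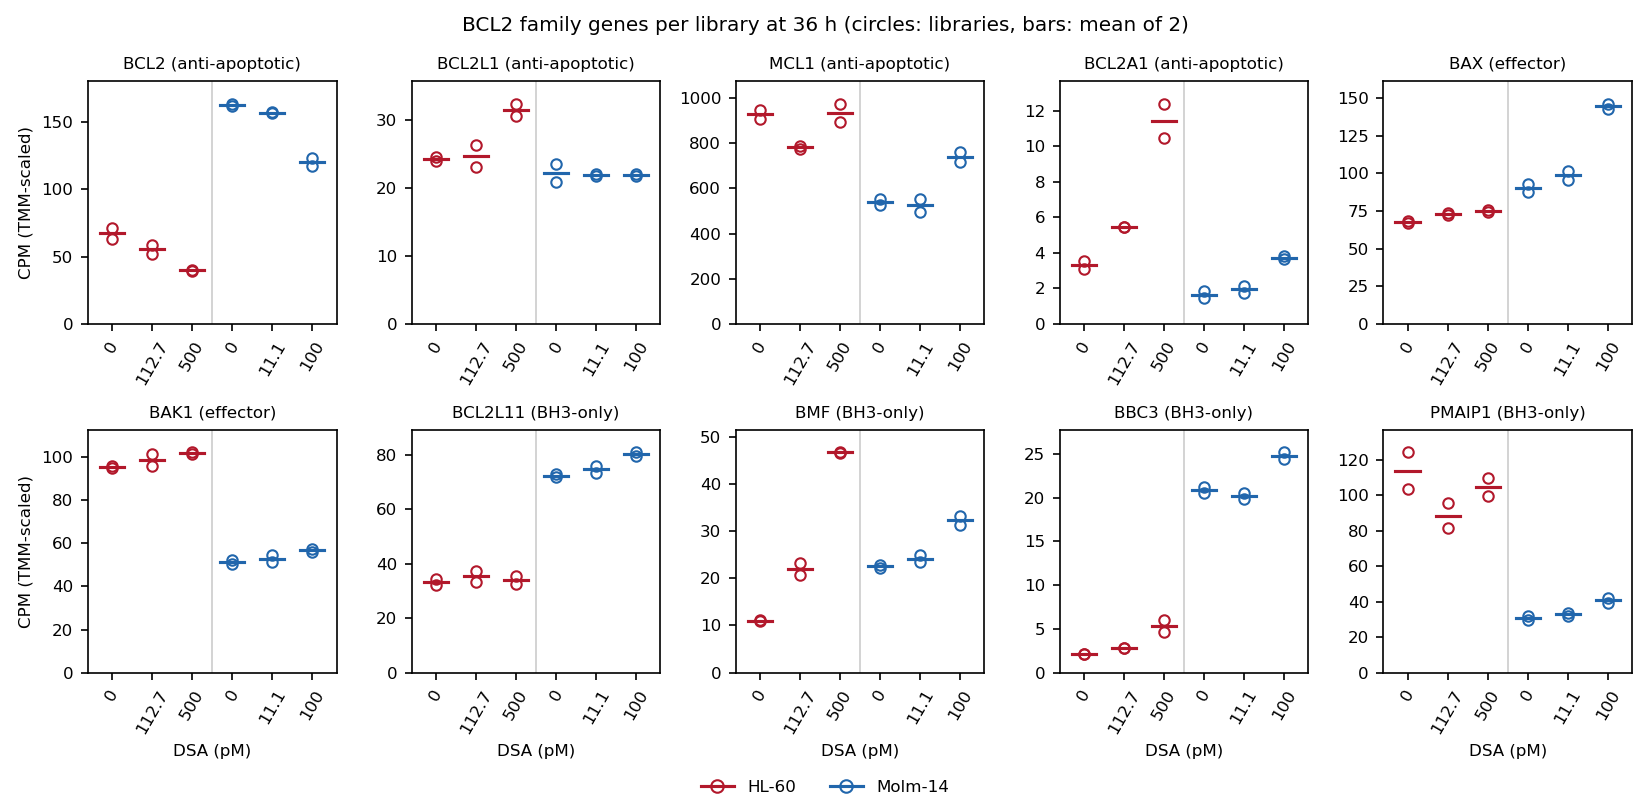
CPM (TMM-scaled) of each of the 10 BCL2 family genes on the y axis, by DSA dose in pM on the x axis, for HL-60 (red, left of each panel) and Molm-14 (blue, right). Circles are the 12 libraries and bars the mean of the 2 libraries of a group; BMF, BCL2A1 and BBC3 climb with dose in HL-60, BAX in Molm-14, and BCL2 declines in both lines.

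The RefSeq promoter windows of the 4 members with the largest rises against control are shown. Their changes at the high doses differed between the lines. The rise was larger in HL-60 for BMF, BCL2A1 and BBC3 and smaller there for BAX. Each window holds the 250 bases before the annotated start (assembly GRCh38.p14, read along the gene's strand). Capitals mark matches on either strand to a promoter box TATAAA, the box bound by NF-Y that reads CCAAT, the element bound by SP1 that reads GGGCGG, the E-box with the letters CACGTG, or the core of CREB and ATF protein sites, which reads TGACG. The E-box and TGACG matches furthest from the BAX start share 2 bases. Windows were found for 9 of the 10 members, 11 windows in all, and not for MCL1. The windows are chr15:40108880-40109129 for BMF (minus strand, the outer of 2), chr15:79971197-79971446 for BCL2A1 (minus strand), chr19:47232668-47232917 for BBC3 (minus strand) and chr19:48954625-48954874 for BAX (plus strand).
BMF: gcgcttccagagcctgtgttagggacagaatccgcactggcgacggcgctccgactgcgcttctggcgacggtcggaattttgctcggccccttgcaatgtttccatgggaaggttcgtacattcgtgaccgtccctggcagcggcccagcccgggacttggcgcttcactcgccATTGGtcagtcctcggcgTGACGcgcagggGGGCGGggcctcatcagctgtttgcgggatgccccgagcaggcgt
BCL2A1: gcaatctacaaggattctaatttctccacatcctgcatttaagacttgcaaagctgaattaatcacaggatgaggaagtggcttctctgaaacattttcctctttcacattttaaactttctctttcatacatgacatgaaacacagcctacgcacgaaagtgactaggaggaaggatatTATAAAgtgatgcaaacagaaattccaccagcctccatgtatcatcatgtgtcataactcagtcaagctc
BBC3: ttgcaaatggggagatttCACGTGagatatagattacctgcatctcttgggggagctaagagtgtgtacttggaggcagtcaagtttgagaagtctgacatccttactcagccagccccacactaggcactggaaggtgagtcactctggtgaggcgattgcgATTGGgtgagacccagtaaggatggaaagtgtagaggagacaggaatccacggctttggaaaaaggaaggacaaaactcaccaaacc
BAX: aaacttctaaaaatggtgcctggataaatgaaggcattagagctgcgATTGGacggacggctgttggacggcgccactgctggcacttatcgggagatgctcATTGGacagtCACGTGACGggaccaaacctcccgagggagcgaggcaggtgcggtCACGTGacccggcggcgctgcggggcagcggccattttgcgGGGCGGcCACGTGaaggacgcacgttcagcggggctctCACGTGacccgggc

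The 4 windows differed in their letters. BAX held 4 copies of CACGTG, and the only other member window with it was that of BBC3, with 1 copy. CACGTG was present in 6.35% of all 35116 RefSeq promoter windows of that length. BCL2A1 held TATAAA (bases -70 to -65 from its start), found in 10.7% of all windows, and had the lowest GC content of the 11, 38.8%. CCAAT (32.0% of all windows) was matched in BMF, BBC3 and BAX, GGGCGG (42.6%) and TGACG (21.2%) in BMF and BAX. These matches describe the letters and say nothing of which factors bind.

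Among the anti-apoptotic genes, BCL2 (ENSG00000171791, chr18:63123346-63320128, minus strand, hg38), which binds BIM and BAX and is the target of venetoclax, fell at the high dose in both lines. It had 70.9 and 63.4 CPM in HL-60 controls, 58.6 and 51.9 CPM at 112.7 pM and 40.1 and 39.5 CPM at 500 pM. Molm-14 controls had 162 and 163.5 CPM, cells at 11.1 pM 156.3 and 157.2 CPM and cells at 100 pM 117.5 and 123.4 CPM. No 2 groups overlapped. At 500 pM in HL-60 it fell by 0.75 on the log2 scale (SE 0.0592, edgeR adjusted p = 1.34e-09) and at 112.7 pM by 0.28 (SE 0.0572, adjusted p = 0.000417). At 100 pM in Molm-14 it fell by 0.43 (SE 0.0499, adjusted p = 9.72e-07), and at 11.1 pM the value was -0.05 (SE 0.0491, adjusted p = 0.732).

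BCL2L1 (ENSG00000171552, chr20:31664452-31723989, minus strand), which encodes BCL-XL and, by splicing, the pro-apoptotic BCL-XS, had the smallest change of the 10 genes in Molm-14 at 100 pM. Its level lay between 20.8 and 23.6 CPM in all 6 Molm-14 libraries. In HL-60 it had 24.0 and 24.5 CPM in controls, 23.1 and 26.3 CPM at 112.7 pM and 32.4 and 30.6 CPM at 500 pM. Only the 500 pM libraries stood above the rest. There it rose by 0.37 (SE 0.0667, edgeR adjusted p = 5.78e-05), whereas the values at 112.7 pM in HL-60 (0.04, SE 0.0694) and at 100 pM in Molm-14 (-0.02, SE 0.0708) missed the threshold. The counts pool both splice forms.

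MCL1 (ENSG00000143384, chr1:150560895-150579738, minus strand), a short-lived protein that myeloid blasts depend on and that NOXA targets, behaved differently in each line. In HL-60 it had 906 and 947.7 CPM in controls, 788.9 and 775.6 CPM at 112.7 pM and 975.2 and 894.3 CPM at 500 pM. The low dose lay below both other groups, which overlapped. It fell at 112.7 pM by 0.25 (SE 0.0478, edgeR adjusted p = 0.000292), a call lost on the log2(TPM + 0.1) scale with limma (-0.17, adjusted p = 0.134), and the value at 500 pM was 0.01 (SE 0.0476, adjusted p = 0.849). In Molm-14 it had 553.2 and 528.1 CPM in controls, 494.6 and 554.6 CPM at 11.1 pM and 761.2 and 714.4 CPM at 100 pM. At 100 pM it rose by 0.45 (SE 0.0482, adjusted p = 4.07e-07). The opposite-strand gene ADAMTSL4 overlaps the 3' end of MCL1 and had 0.526 to 10.4% of its count, and no source used here says whether reads were counted by strand.

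BCL2A1 (ENSG00000140379, chr15:79960892-79971196, minus strand), an NF-kB target of the hematopoietic lineage that blocks BIM, PUMA and BAK, had the lowest count of the 4 anti-apoptotic genes, 49 to 404 per library, and the largest rise among them in both lines. It had 3.08 and 3.53 CPM in HL-60 controls, 5.45 and 5.48 CPM at 112.7 pM and 10.5 and 12.4 CPM at 500 pM. In Molm-14 it had 1.83 and 1.47 CPM in controls, 2.15 and 1.75 CPM at 11.1 pM and 3.65 and 3.83 CPM at 100 pM. The high dose lay above the control without overlap in each line. It rose by 1.77 at 500 pM (SE 0.133, edgeR adjusted p = 6.65e-10), by 0.70 at 112.7 pM (SE 0.146, adjusted p = 0.000537) and, in Molm-14, by 1.16 at 100 pM (SE 0.173, adjusted p = 2.27e-05).

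Of the effectors, which form the pore in the outer membrane, BAX (ENSG00000087088, chr19:48954815-48961798, plus strand) had its larger rise in Molm-14. Molm-14 controls had 92.8 and 87.5 CPM, cells at 11.1 pM 101.7 and 95.9 CPM and cells at 100 pM 146.4 and 142.8 CPM. HL-60 controls had 66.8 and 68.1 CPM, cells at 112.7 pM 73.8 and 72.5 CPM and cells at 500 pM 75.7 and 74.1 CPM. All 6 groups were apart from their neighbours in level. BAX rose by 0.68 in Molm-14 at 100 pM (SE 0.0409, edgeR adjusted p = 1.55e-10), the member with the smallest p in that comparison. It rose by 0.15 in HL-60 at 500 pM (SE 0.0436, adjusted p = 0.00489) and by 0.12 at 112.7 pM (SE 0.044, adjusted p = 0.0355). The call at 112.7 pM was lost without any 1 of the 4 libraries compared, with values of 0.10 to 0.13. EdgeR on all gene types (adjusted p = 0.0584) or on thinned libraries (adjusted p = 0.053) and the log2(TPM + 0.1) scale with limma (adjusted p = 0.508) lost it too. At 11.1 pM in Molm-14 BAX was the only member with an unadjusted p under 0.05 (0.13, SE 0.0417, edgeR adjusted p = 0.16).

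BAK1 (ENSG00000030110, chr6:33572547-33580293, minus strand), the effector that sits in the mitochondrial membrane before any death signal, moved little. It had 96.0 and 94.9 CPM in HL-60 controls, 101.6 and 95.9 CPM at 112.7 pM and 101.5 and 102.3 CPM at 500 pM. The values in Molm-14 were 52.1 and 50.4 CPM in controls, 54.6 and 51.1 CPM at 11.1 pM and 56.2 and 57.5 CPM at 100 pM. In each line the low dose overlapped the control and the high dose did not. It rose by 0.10 in HL-60 at 500 pM (SE 0.0416, edgeR adjusted p = 0.046) and by 0.15 in Molm-14 at 100 pM (SE 0.0461, adjusted p = 0.0131). The HL-60 call was lost without any 1 of its 4 libraries (0.08 to 0.10), and the Molm-14 call without control replicate 2 (0.12) or without the second 100 pM library (0.13). The HL-60 call was also lost in edgeR with no filter on low counts (adjusted p = 0.153), with all gene types (adjusted p = 0.159) and with thinned libraries (adjusted p = 0.0632). On the log2(TPM + 0.1) scale with limma both were lost (adjusted p = 0.0623 in HL-60 and 0.167 in Molm-14). The pseudogene BAK1P1 shares sequence with BAK1 and held 11.1 to 42.2 counts per library.

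**Figure D2:**
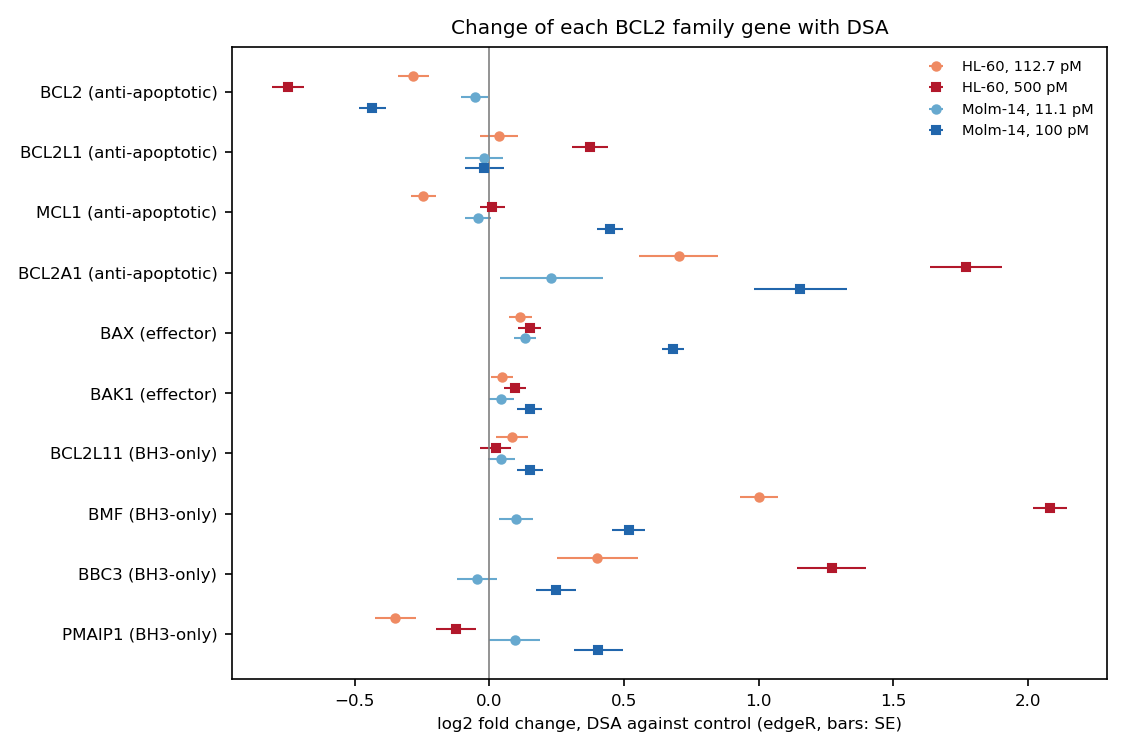
Log2 fold change of each BCL2 family gene (y axis, grouped by role), DSA against the control of the same line (x axis), from edgeR, with bars for the SE. Orange and red are HL-60 at 112.7 and 500 pM, light and dark blue Molm-14 at 11.1 and 100 pM; BMF, BCL2A1 and BBC3 in HL-60 at 500 pM lie furthest right (2.08, 1.77 and 1.27) and BCL2 at the same dose furthest left (-0.75).

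The BH3-only gene BMF (ENSG00000104081, chr15:40087890-40108892, minus strand), which is held at the actin and myosin V motors through dynein light chain until released, had the largest change of the 10 genes. It had 11.1 and 10.9 CPM in HL-60 controls, 20.7 and 23.1 CPM at 112.7 pM and 46.8 and 46.7 CPM at 500 pM. In Molm-14 it had 22.8 and 22.3 CPM in controls, 24.9 and 23.4 CPM at 11.1 pM and 33.2 and 31.3 CPM at 100 pM. HL-60 cells thus had the lowest level of the 6 groups without DSA and the highest at 500 pM, and their 112.7 pM libraries overlapped the Molm-14 controls. BMF rose by 2.08 at 500 pM (SE 0.0638, edgeR adjusted p = 1.81e-15), by 1.001 at 112.7 pM (SE 0.0707, adjusted p = 2.48e-09) and, in Molm-14, by 0.52 at 100 pM (SE 0.0615, adjusted p = 1.46e-06). In Molm-14 at 11.1 pM the value was 0.10 (SE 0.0635, adjusted p = 0.591).

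BBC3 (ENSG00000105327, chr19:47220822-47232766, minus strand) encodes PUMA, which binds every anti-apoptotic member. It had 2.15 and 2.12 CPM in HL-60 controls, 2.84 and 2.82 CPM at 112.7 pM and 6.04 and 4.64 CPM at 500 pM, on 59 to 151 counts per library. In Molm-14 it had 20.6 and 21.2 CPM in controls, 19.9 and 20.6 CPM at 11.1 pM and 25.2 and 24.4 CPM at 100 pM. Every HL-60 library lay below every Molm-14 library. It rose by 1.27 in HL-60 at 500 pM (SE 0.129, edgeR adjusted p = 4.64e-08), by 0.40 at 112.7 pM (SE 0.15, adjusted p = 0.0323) and by 0.25 in Molm-14 at 100 pM (SE 0.0739, adjusted p = 0.0103). The call at 112.7 pM was lost without any 1 of its 4 libraries (0.39 to 0.41). It was also lost with limma-voom (adjusted p = 0.0741), with the groups compared only (edgeR adjusted p = 0.063) and on the log2(TPM + 0.1) scale with limma (adjusted p = 0.102). The Molm-14 call was lost without control replicate 1 (0.23) or without the first 100 pM library (0.22). DESeq2 (adjusted p = 0.103) and the log2(TPM + 0.1) scale with limma (adjusted p = 0.275) lost it too.

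PMAIP1 (ENSG00000141682, chr18:59899996-59904305, plus strand) encodes NOXA, which binds MCL1 and BFL-1 and speeds the turnover of MCL1. Its HL-60 controls had 124.2 and 103.5 CPM, cells at 112.7 pM 81.3 and 95.7 CPM and cells at 500 pM 109.6 and 99.3 CPM. Both 112.7 pM libraries lay below both controls, and the 500 pM libraries overlapped the controls. At 112.7 pM it fell by 0.35 (SE 0.0759, edgeR adjusted p = 0.000781), or -0.35 on the log2(TPM + 0.1) scale with limma (adjusted p = 0.0551). At 500 pM the value was -0.12 (SE 0.0746, adjusted p = 0.143), and -0.14 with no filter on low counts (adjusted p = 0.00338). It was 0.0032 without HL-60 control replicate 1 (adjusted p = 0.982) and -0.26 without replicate 2 (adjusted p = 0.00363). Molm-14 controls had 29.8 and 31.7 CPM, cells at 11.1 pM 31.9 and 33.7 CPM and cells at 100 pM 41.9 and 39.5 CPM. At 100 pM it rose by 0.40 (SE 0.0918, adjusted p = 0.00137).

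BCL2L11 (ENSG00000153094, chr2:111119378-111168444, plus strand) encodes BIM, the BH3-only protein that activates BAX and BAK directly and that loss of growth factor is known to induce. It had 34.4 and 32.3 CPM in HL-60 controls, 37.4 and 33.5 CPM at 112.7 pM and 35.3 and 32.6 CPM at 500 pM, and these groups overlapped. The HL-60 values were 0.08 (SE 0.0581) at 112.7 pM and 0.02 (SE 0.0579) at 500 pM, with edgeR adjusted p-values of 0.243 and 0.74. In Molm-14 it had 71.9 and 73.0 CPM in controls, 73.5 and 75.9 CPM at 11.1 pM and 79.8 and 81.0 CPM at 100 pM. It rose at 100 pM by 0.15 (SE 0.0491, adjusted p = 0.0181), a call that was lost without any 1 of its 4 libraries (0.14 to 0.16). DESeq2 (adjusted p = 0.0629), edgeR on all gene types (adjusted p = 0.0536) and the log2(TPM + 0.1) scale with limma (adjusted p = 0.603) lost it too. The long non-coding RNA MIR4435-2HG lies across it on the other strand with 15.2 to 141% of its count. The expected counts of BCL2L11 were whole numbers in every library, and whether the 2 genes shared reads was not tested.

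Counted by comparison, 8 of 10 members rose and 1 fell in Molm-14 at 100 pM, where 22.9% of all genes tested rose and 21.9% fell, and the median of the 10 was 0.33 against 0.0038 over all genes. In HL-60 at 500 pM 6 rose and 1 fell, where 35.8% of all genes rose and 37.8% fell (median 0.12, against 0 over all genes). The low dose of HL-60 gave 4 rises and 3 falls, against 24.2% and 27.4% of all genes (median 0.07, against 0). The counts of these 3 comparisons include rises whose call was lost in fits with 1 library left out. In Molm-14 at 100 pM these were BAK1, BCL2L11 and BBC3. In HL-60 they were BAK1 at 500 pM, and BAX and BBC3 at the low dose. At 11.1 pM in Molm-14 no member was called by edgeR, 1 had an unadjusted p under 0.05, and DESeq2 and limma-voom also called 0, where 0.969% of all genes rose and 0.238% fell.

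Against the low dose, the high dose gave 6 rises and 1 fall in each line. In HL-60 at 500 against 112.7 pM, 25.9% of all genes rose and 26.8% fell, and in Molm-14 at 100 against 11.1 pM, 19.6% rose and 18.5% fell. The HL-60 rises were BCL2L1 (0.34), MCL1 (0.26), BCL2A1 (1.07), BMF (1.08), BBC3 (0.87) and PMAIP1 (0.23), and the fall was that of BCL2 (-0.47). The PMAIP1 call was lost without the first 112.7 pM library (0.12, adjusted p = 0.282) or without the first 500 pM library (0.15, adjusted p = 0.168). The Molm-14 rises were MCL1 (0.49), BCL2A1 (0.92), BAX (0.55), BMF (0.42), BBC3 (0.29) and PMAIP1 (0.31), with BCL2 falling again (-0.38). Without the first 11.1 pM library PMAIP1 was at 0.27 (adjusted p = 0.0722), and without the first 100 pM library at 0.27 (adjusted p = 0.0952).

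Rises of over 2-fold were found for 3 members in HL-60 at 500 pM (BMF, BCL2A1 and BBC3), where 16.2% of all genes rose by as much, for 1 at 112.7 pM (BMF, against 5.26% of all genes) and for 1 in Molm-14 at 100 pM (BCL2A1, against 3.08%). BMF at 112.7 pM sat on that line, at 2.002-fold, and fell below it without HL-60 control replicate 2 (0.98) or without the second 112.7 pM library (0.91). From 112.7 to 500 pM in HL-60, BMF and BCL2A1 rose by over 2-fold, against 8.01% of all genes. No member fell by as much in any comparison with DSA.

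The balance of calls in HL-60 depended on the scaling. With library totals alone in place of TMM factors, the median of all genes at 500 pM moved by 0.17, and 6304 genes rose and 3376 fell, against 4802 and 5075 with TMM. Under it 8 members rose and 1 fell at 500 pM, since MCL1 (0.19, adjusted p = 0.0014) and BCL2L11 (0.21, adjusted p = 0.00461) then passed the threshold, and PMAIP1 turned to 0.06. The rises of BMF, BCL2A1, BBC3, BCL2L1 and BAX at 500 pM and the fall of BCL2 were called under all 11 alternatives and with each library left out.

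Per-length levels show which members made up the family's mRNA. The summed TPM (the length-adjusted abundance unit of RSEM) of the 10 genes were 596.8 and 590.6 in HL-60 controls, 560.0 and 543.8 at 112.7 pM and 697.6 and 645.3 at 500 pM, and 460.8 and 451.5 in Molm-14 controls, 459.2 and 474.4 at 11.1 pM and 609.0 and 601.7 at 100 pM. MCL1 was the most abundant member in all 12 libraries, with 48.8 to 52.7% of the sum in HL-60 and 36.2 to 39.2% in Molm-14. BAX came next, with 16.7 to 19.4% in HL-60 and 31.3 to 37.1% in Molm-14, and PMAIP1 held 10.5 to 14.6% in HL-60 against 4.33 to 4.87% in Molm-14. BCL2 itself was a minor part, with 2.08 and 1.86% in HL-60 controls, 1.84 and 1.60% at 112.7 pM and 1.06 and 1.13% at 500 pM, and 5.56 and 5.85% in Molm-14 controls, 5.39 and 5.33% at 11.1 pM and 2.997 and 3.29% at 100 pM.

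By role, the anti-apoptotic genes held 56.0 and 58.3% of the summed TPM in HL-60 controls, 56.16 and 55.05% at 112.7 pM and 58.3 and 57.3% at 500 pM. Their share in each DSA group overlapped the controls. In Molm-14 they held 48.6 and 47.9% in controls, 45.4 and 47.3% at 11.1 pM and 45.2 and 45.1% at 100 pM. The Molm-14 effectors took 37.3 and 37.4% in controls and 41.9 and 41.6% at 100 pM. There BAX accounted for 31.3% of the sum in both controls and for 37.1 and 36.5% at 100 pM. In HL-60 the effectors took 26.62 and 26.58% in controls, 29.63 and 29.03% at 112.7 pM and 25.22 and 27.24% at 500 pM. The 112.7 pM libraries lay above the controls, and the 500 pM libraries overlapped them. The BH3-only genes fell in share in Molm-14, from 14.17 and 14.75% in controls to 12.92 and 13.25% at 100 pM. The summed TPM rose there, from 460.8 and 451.5 to 609.0 and 601.7. The lower share was thus not a lower level, since BCL2L11, BMF, BBC3 and PMAIP1 were each called higher at 100 pM. In HL-60 the BH3-only genes held 17.35 and 15.08% in controls, 14.2 and 15.92% at 112.7 pM and 16.44 and 15.49% at 500 pM, which overlapped. BMF made up 0.597 and 0.621% of the sum in HL-60 controls, 1.14 and 1.30% at 112.7 pM and 2.25 and 2.29% at 500 pM, and BCL2A1 0.968 and 1.118%, 1.79 and 1.82%, and 2.87 and 3.76% in the same groups. Shares are descriptions of single libraries and carry no test.

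**Figure D3:**
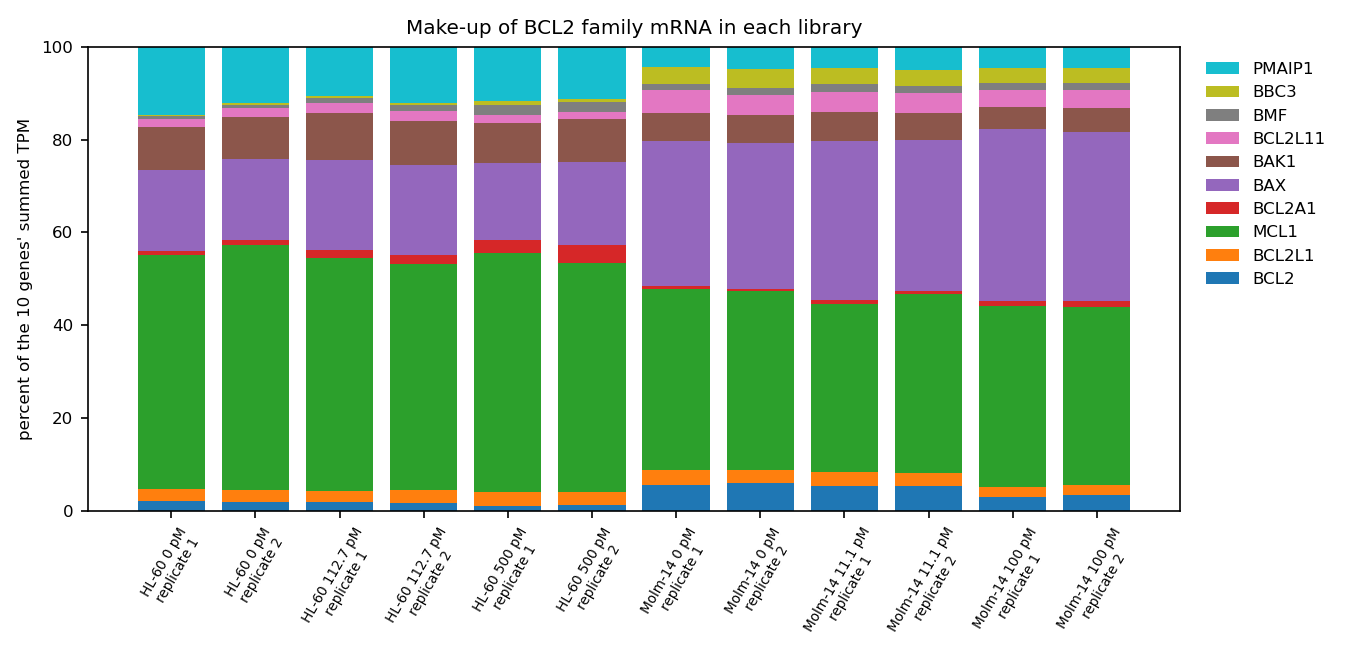
Share of each BCL2 family gene in the summed TPM of the 10 genes (y axis, percent) for each of the 12 libraries (x axis), HL-60 left and Molm-14 right, by dose. MCL1 (green) is the largest share in every library, 48.8 to 52.7% in HL-60 and 36.2 to 39.2% in Molm-14, and BAX (purple) reaches 37.1% in Molm-14 at 100 pM.

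Without DSA the lines already differed in 9 of the 10 genes. In HL-60 controls 4 members were higher than in Molm-14 controls, where 43.9% of all genes were, and 5 were lower, where 40.1% were. PMAIP1 was 3.68-fold higher in HL-60 (log2 1.88, SE 0.0834, edgeR adjusted p = 6.61e-14), and BCL2A1 (0.99), BAK1 (0.90) and MCL1 (0.78) were higher too. BBC3 was 9.55-fold lower in HL-60 (log2 -3.26, SE 0.0998, adjusted p = 2.09e-16), the largest line difference of the family. BCL2 (-1.28), BCL2L11 (-1.122), BMF (-1.03) and BAX (-0.42) were also lower in HL-60. Differences of over 2-fold were found for 1 member that was higher (PMAIP1, against 16.3% of all genes) and 4 that were lower in HL-60 (BCL2, BCL2L11, BMF and BBC3, against 20.4%). BCL2L1 did not pass the threshold (0.13, SE 0.0677, adjusted p = 0.0836), but did without Molm-14 control replicate 1 (0.22, adjusted p = 0.0209).

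Ordered by mean CPM over the 6 groups, the genes fell into 50 neighbouring pairs of groups, and in 14 of them the libraries overlapped, against 39.3% of such pairs over all genes tested. BCL2 and BAX had no overlapping neighbours. In BCL2, MCL1, BAX, BAK1, BCL2L11, BBC3 and PMAIP1 all HL-60 libraries lay on one side of all Molm-14 libraries, as in 61.1% of all genes tested, whereas in BCL2L1, BCL2A1 and BMF the lines overlapped. BMF was lower in HL-60 than in Molm-14 without DSA and higher at the high doses.

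The change with DSA was compared between the lines as an interaction in the same fit, in which each line's own doses enter, so the doses compared are unequal. At the high doses (500 pM in HL-60, 100 pM in Molm-14) the change was higher in HL-60 for 4 members, against 25.1% of all genes, and lower in HL-60 for 4, against 30.3%. BMF differed most, by 1.57 (SE 0.0892, edgeR adjusted p = 4.94e-11), followed by BBC3, by 1.02 (SE 0.148, adjusted p = 9.45e-06). These 2 passed a 2-fold difference, as 9.84% of all genes did in that direction, and BBC3 was under 2-fold without Molm-14 control replicate 2 (0.997), the second 100 pM library (0.996) or the first 500 pM library (0.85). BCL2A1 (0.62, adjusted p = 0.0304) and BCL2L1 (0.39, adjusted p = 0.00214) also changed more upward in HL-60, the BCL2A1 call being lost without Molm-14 control replicate 1, the first 100 pM library, HL-60 control replicate 1 or the second 500 pM library (0.45 to 0.58). BAX was lower by -0.53 (SE 0.0597, adjusted p = 4.24e-07), PMAIP1 by -0.53 (SE 0.118, adjusted p = 0.000874), MCL1 by -0.44 (SE 0.0677, adjusted p = 2.04e-05) and BCL2 by -0.31 (SE 0.0775, adjusted p = 0.00197). With library totals alone the BCL2 difference was -0.16 (adjusted p = 0.0903).

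At the low doses (112.7 pM in HL-60, 11.1 pM in Molm-14) the change was higher in HL-60 for BMF (0.90, SE 0.095, edgeR adjusted p = 1.27e-06) and BBC3 (0.45), as for 15.4% of all genes, and lower in HL-60 for PMAIP1 (-0.44), BCL2 (-0.23) and MCL1 (-0.20), as for 19.9%. The BBC3 call was lost without any 1 of the 8 libraries (0.42 to 0.47), that of BCL2 without 5 of them (-0.13 to -0.23) and that of MCL1 without 4 (-0.12 to -0.18), and DESeq2 called BMF alone. By concentration alone, the nearest doses across lines were 112.7 pM in HL-60 and 100 pM in Molm-14. The changes there were 1.001 and 0.52 for BMF, 0.70 and 1.16 for BCL2A1, 0.12 and 0.68 for BAX, -0.25 and 0.45 for MCL1 and -0.35 and 0.40 for PMAIP1. The 2 doses are not the same, and these values are given side by side without a test. Nor are they matched for potency. The low dose of each line equals the IC50 that the paper reports for it, its measure of potency from a longer viability assay. This pair thus sets the IC50 of HL-60 beside a dose well above that of Molm-14. The low-dose comparison is the one matched by IC50.

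**Figure D4:**
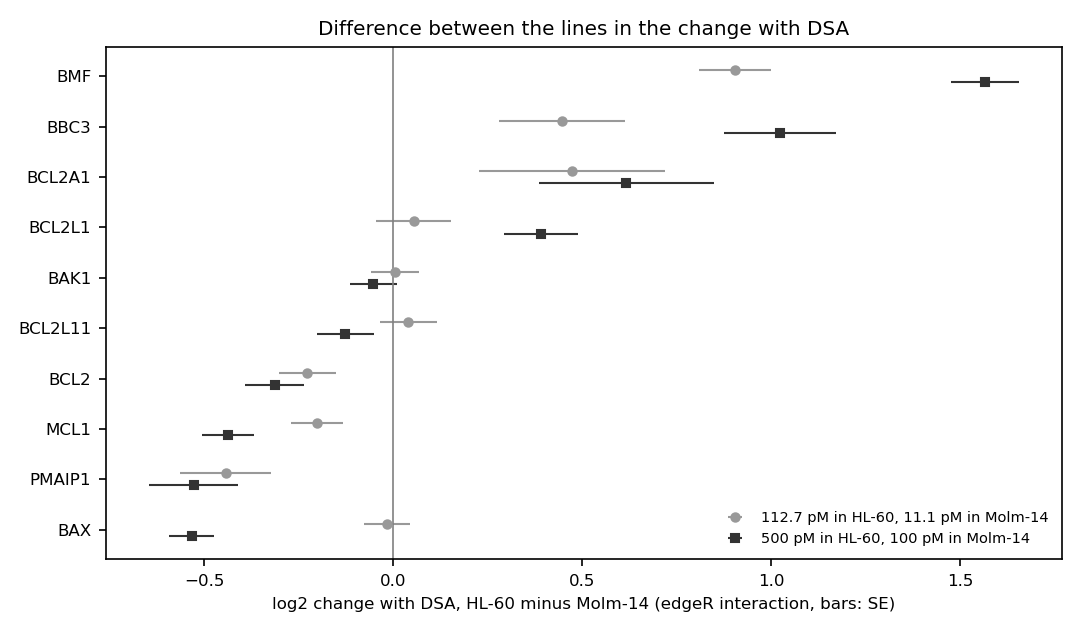
Difference between the lines in the log2 change with DSA, HL-60 minus Molm-14 (x axis), for each BCL2 family gene (y axis, sorted by the high dose), with bars for the SE from the edgeR interaction. Grey circles are the low doses and dark squares the high doses; BMF lies furthest right at both (0.90 and 1.57), and BAX (-0.53) and PMAIP1 (-0.53) furthest left at the high doses.

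Beyond the 10 genes, 13 other BCL2 relatives were listed and 10 were measured well enough to test (BCL2L10, BCL2L14 and BOK were not). In HL-60 at 500 pM 2 rose and 2 fell, and in Molm-14 at 100 pM 3 rose and 4 fell, with no change over 2-fold. Over all genes 35.8% rose and 37.8% fell in HL-60, and 22.9% rose and 21.9% fell in Molm-14. The called share of these relatives was thus below that of all genes in HL-60 and above it in Molm-14. BNIP3 and BNIP3L, paired mitophagy receptors with a BH3-like stretch, moved in opposite directions in both lines. BNIP3 fell by 0.43 in HL-60 (SE 0.0571) and by 0.48 in Molm-14 (SE 0.0532), and BNIP3L rose by 0.65 (SE 0.103) and 0.43 (SE 0.0666), all with edgeR adjusted p-values of 3.49e-05 or less. BCL2L13 rose in HL-60 (0.20, adjusted p = 0.00026) and BCL2L12 fell in Molm-14 (-0.28, adjusted p = 0.000663).

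Among 17 genes of the mitochondrial death machinery, all tested, 4 rose and 11 fell in HL-60 at 500 pM (35.8% and 37.8% of all genes, median -0.20 against 0). In Molm-14 at 100 pM 3 rose and 7 fell (22.9% and 21.9% of all genes, median -0.07 against 0.0038). CYCS, the cytochrome c that leaves through the pore, had 319.1 and 339.4 CPM in HL-60 at 500 pM, against 622.1 and 594.4 CPM in controls, a fall of 0.88 (SE 0.0429, edgeR adjusted p = 1.21e-12). HTRA2, a protease released with it, fell by 0.70 there and by 0.23 in Molm-14, and the channel gene VDAC1 fell by 0.44 and by 0.20. The caspase-9 gene CASP9, the first caspase of the apoptosome, rose by 1.03 in HL-60 (SE 0.113, adjusted p = 1.23e-07) and by 0.43 in Molm-14, and its scaffold APAF1 by 0.15 and 0.35. BIRC3, an inhibitor of apoptosis and NF-kB target, had 14.2 and 13.8 CPM in HL-60 at 500 pM, against 4.32 and 4.75 CPM in controls, a rise of 1.60 (adjusted p = 2.54e-09). BIRC5, survivin, fell by 0.50 in Molm-14 (adjusted p = 1.83e-09) and was at 0.01 in HL-60 (adjusted p = 0.762).

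**Figure D5:**
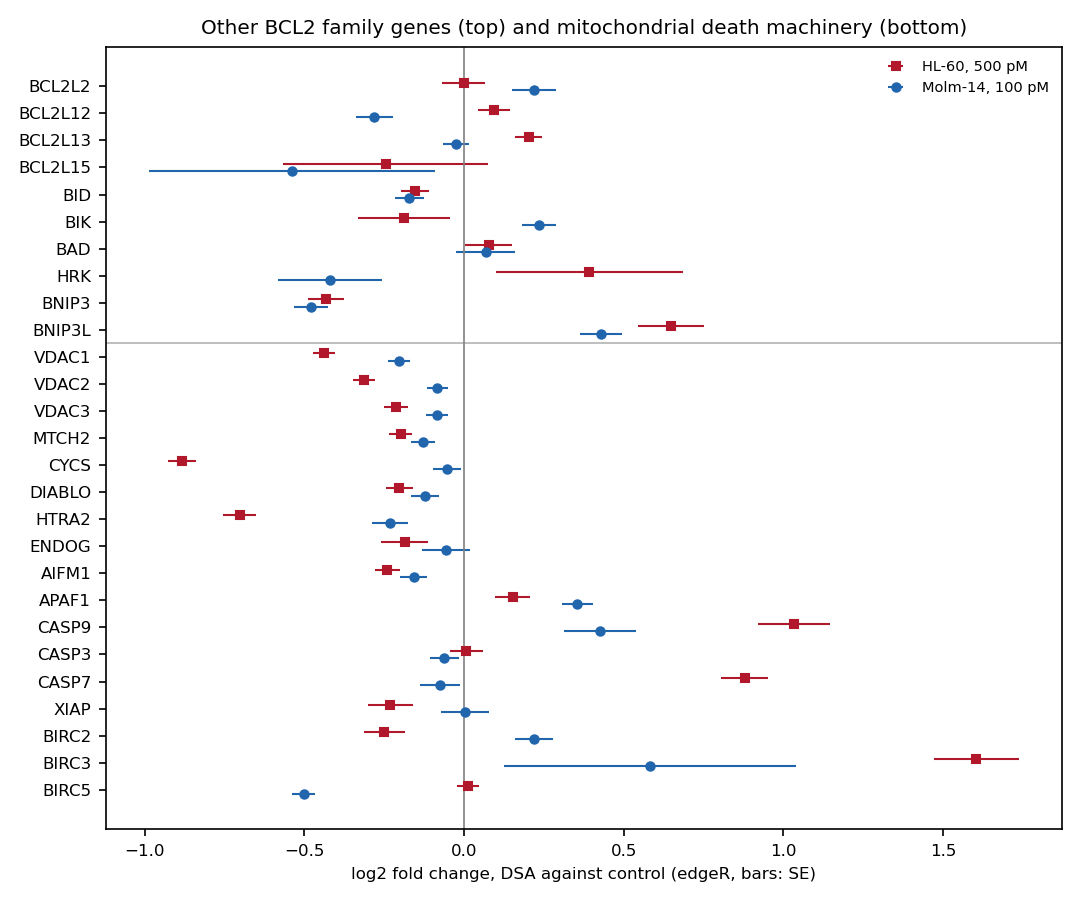
Log2 fold change against the control of the same line (x axis, bars for the SE, edgeR) of the 10 tested other BCL2 family genes (above the line) and the 17 genes of the mitochondrial death machinery (below it). Red squares are HL-60 at 500 pM and blue circles Molm-14 at 100 pM; BIRC3 (1.60), CASP9 (1.03) and CYCS (-0.88) mark the ends of the HL-60 range.

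Regulators of the BCL2 proteins gave 1 rise and 4 falls among 11 tested in HL-60 at 500 pM (35.8% and 37.8% of all genes), and 3 rises and 1 fall in Molm-14 at 100 pM (22.9% and 21.9% of all genes). In HL-60 the falls included BCLAF1, a BCL2-associated nuclear factor (-0.86, edgeR adjusted p = 1.45e-13), and DYNLL1, a dynein light chain (-0.28, adjusted p = 1.82e-06). MARCHF5, the mitochondrial ubiquitin ligase that turns over MCL1 and NOXA, fell there too (-0.50, edgeR adjusted p = 1.7e-07). In Molm-14 the 3 rises were TPT1 (0.14), USP9X, the deubiquitinase of MCL1 (0.23), and BECN1, which carries a BH3 domain (0.17).

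Transcription factors known to act on BH3-only genes gave 8 rises and 3 falls among 13 tested in HL-60 at 500 pM (35.8% and 37.8% of all genes), and 3 rises and 7 falls in Molm-14 at 100 pM (22.9% and 21.9% of all genes). In HL-60, TP73, a transcription factor that can switch on PUMA, had 3.32 and 3.10 CPM at 500 pM, against 0.536 and 0.543 CPM in controls, a rise of 2.44 (SE 0.167, edgeR adjusted p = 1.69e-10). ATF3 rose by 2.06 (adjusted p = 7.58e-13) and DDIT3 (CHOP), which acts on BIM and PUMA, by 1.39 (adjusted p = 7.26e-11), while ATF4 fell by 0.69 (adjusted p = 1.44e-11) and MYC by 1.17 (adjusted p = 8.17e-16). In Molm-14 at 100 pM ATF4 fell by 0.61, MYC by 0.53, E2F1 by 0.34 and DDIT3 by 0.33, and TP73 rose by 0.27 and ATF3 by 0.25. The change with DSA was higher in HL-60 than in Molm-14 by 2.17 for TP73 (adjusted p = 5.66e-09), by 1.81 for ATF3 (adjusted p = 3.47e-10) and by 1.72 for DDIT3 (adjusted p = 1.19e-09), at unequal doses.

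Among 11287 other genes, the genes whose log2 CPM followed a member most closely over the 12 libraries were listed for the 3 members that rose by over 2-fold. They were TP73 (Pearson r = 0.998) and PHACTR2 (0.997) for BBC3, CFP (0.992) and SASH3 (0.987) for BCL2A1, and IRF5 (0.992) and RNF213 (0.991) for BMF. The 12 points hold 2 lines and 3 doses each, so line and dose differences that many genes share enter these values, which are descriptions without a test.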

How the data were processed

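Bulk RNA-seq of 12 libraries (2 per group) from HL-60 and Molm-14 cells was analysed from gene-level tables. The authors trimmed reads with Trim Galore 0.60, aligned them with STAR 2.7 to hg38 and quantified GENCODE release 31 genes with RSEM (version 1.31 in the submitters' processing notes), and deposited expected counts, TPM and FPKM per gene; FPKM were not used here. Of 60754 identifiers per file, 45 copies on the Y pseudoautosomal region were left out and 60261 of 60709 were named from GENCODE release 44.

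Expected counts deposited by the authors were rounded, and protein-coding genes of level 1 or 2 were tested with edgeR 4.0.16 (R 4.3.3): filterByExpr, TMM, 6 group means, quasi-likelihood F-tests, Benjamini-Hochberg adjustment over 13422 genes, SE as the absolute log2 fold change over the square root of F, prior count 2. The study used limma-voom; it (limma 3.58.1), DESeq2 1.42.0, other scalings and filters, thinned libraries, a replicate block and log2(TPM + 0.1), from the TPM the authors deposited, were alternatives. CPM used TMM-scaled totals. The code was tested on simulated data. Replicates of a group differed beyond sampling noise (chi-square per degree of freedom 2.23 to 3.81 over genes), so no library counted as deposited in duplicate.

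Members and lists were chosen with earlier results of these data known. Named were all 10 members, genes of the 4 wider lists with adjusted p under 0.05 and over 2-fold change in a DSA against control comparison, up to 3 per list with the smallest p at each high dose, and the 2 genes most like each member that rose over 2-fold. Promoter sequences are from RefSeq (GRCh38.p14). A gene that the rule also named is not reported here.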

Additional observations from a re-analysis of the deposited data

Results flagged for a closer look

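For 8 of the 10 genes the change at the high dose differed between the lines in the edgeR interaction test, 4 in each direction, where 25.1% of all genes were higher and 30.3% lower in HL-60. The change in HL-60 (500 pM) was higher than in Molm-14 (100 pM) by 1.57 for BMF, 1.02 for BBC3, 0.62 for BCL2A1 and 0.39 for BCL2L1. For the other 4 the difference was negative, at -0.53 for BAX, -0.53 for PMAIP1, -0.44 for MCL1 and -0.31 for BCL2. Of these 8, MCL1 and PMAIP1 were called against control in Molm-14 and not in HL-60, and BCL2L1 in HL-60 and not in Molm-14.

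At the low doses (112.7 pM in HL-60, 11.1 pM in Molm-14) 5 genes differed, with 0.90 for BMF, 0.45 for BBC3, -0.20 for MCL1, -0.23 for BCL2 and -0.44 for PMAIP1, and adjusted p-values between 1.27e-06 (BMF) and 0.0454 (BBC3) from edgeR. Over all genes 15.4% were higher and 19.9% lower there. The lines received unequal doses and grew in different media, so line, dose and medium cannot be told apart in any of the 13 differences.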

How the results depend on the processing

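Of 59 member changes called across the 9 comparisons, 40 were called under all alternatives and with each library left out, and 19 were lost in at least 1 of them. In 55 cases a value changed sign, none of them of a called change (lowest adjusted p 0.143, values up to 0.11 in size). The cause was not tested. Counts of calls over all genes differed by over 1.5 times in 7 cases. In Molm-14 at 11.1 pM 162 were called, against 468 with no filter, 271 with the groups compared only and 0 with log2(TPM + 0.1). The last called 3562 against 6013 at 100 pM and 2611 against 5109 between these doses in Molm-14, 3810 against 6937 at 112.7 pM in HL-60 and 1648 against 4743 for the low-dose difference between lines. With TMM replaced by totals alone the members called at 112.7 pM in HL-60 were 6 higher and 3 lower, against 4 and 3. Over all genes 4231 were then higher and 2696 lower, against 3254 and 3683.

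Over all genes, the low-dose difference between lines gave 2069 higher and 2674 lower in the main fit. The alternatives gave 2082 and 1610 (DESeq2), 2623 and 2106 (RLE factors), 2662 and 2085 (totals alone), 2126 and 2587 (all gene types) and 997 and 651 (TPM). At 112.7 pM in HL-60 TPM gave 2045 and 1765, against 3254 and 3683, and for the high-dose difference 3412 and 1653, against 3373 and 4067. The larger shifts in the counts of members were as follows, and smaller shifts are not listed. For HL-60 at 112.7 pM, 0 instead of 1 member was over 2-fold with no filter, with all gene types and with log2(TPM + 0.1), and 0 to 1 with 1 library left out; log2(TPM + 0.1) called 3 instead of 7. For the high-dose difference between lines log2(TPM + 0.1) called 5 instead of 8, and 1 to 2 members were over 2-fold with 1 library left out. For the low-dose difference, in place of 5, DESeq2 called 1, RLE factors 3, totals alone 3, all gene types 3, log2(TPM + 0.1) 1 and leave-one-out fits 2 to 4. In Molm-14 at 100 against 11.1 pM, 0 to 1 was over 2-fold with 1 library left out.

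Replicate numbers did not pair the samples: deviations of same-numbered libraries correlated at -0.069 to 0.067 across 13422 genes. A replicate block lost no called member and added BCL2L11 in Molm-14 at 100 against 11.1 pM (0.11, edgeR adjusted p = 0.0487), and BCL2L1 there was at -0.0014.

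The other reversed values were these. BCL2L1 in that comparison was at -0.0013 (DESeq2), -0.0011 (RLE), -0.0050 (no filter), -0.0087 (all gene types), -0.0073 (groups compared only) and -0.054 (TPM). In Molm-14 at 11.1 pM BCL2L11 was at -0.066 (TPM), and at 100 pM BCL2L1 at 0.015 (totals). In HL-60 BCL2L1 was at -0.096 at 112.7 pM (TPM), and at 500 pM PMAIP1 was at 0.060 (totals), MCL1 at -0.0092 (no filter) and -0.016 (all gene types) and BCL2L11 at -0.0042 (all gene types) and -0.11 (TPM). BCL2L11 at 500 against 112.7 pM was at 0.049 (totals). In the high-dose difference BAK1 was at 0.0047 (DESeq2), 0.0049 (RLE), 0.097 (totals) and 0.024 (TPM), and BCL2L11 at 0.023 (totals). In the low-dose difference BAX was at 0.038 (DESeq2), 0.037 (RLE), 0.039 (totals), 0.0087 (mean of at least 50 counts), 0.015 (groups compared only) and 0.014 (thinned), BAK1 at -0.020 (thinned) and -0.014 (TPM), and BCL2L1 at -0.043 (TPM).

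With 1 library left out, values that crossed 0 ranged as follows. In Molm-14 at 11.1 pM BCL2L1 ranged over -0.11 to 0.069, MCL1 over -0.13 to 0.036 and BAK1 over -0.0053 to 0.090; BCL2L1 ranged over -0.11 to 0.070 at 100 pM and -0.011 to 0.012 between these doses. In HL-60 BCL2L1 ranged over -0.068 to 0.12 at 112.7 pM, and at 500 pM MCL1 over -0.055 to 0.070, PMAIP1 over -0.26 to 0.0032 and BCL2L11 over -0.033 to 0.084, the last also over -0.15 to 0.0085 between these doses. In the low-dose difference BCL2L1 ranged over -0.047 to 0.14, BAK1 over -0.044 to 0.053, BAX over -0.060 to 0.025 and BCL2L11 over -0.034 to 0.13.

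With 2 libraries a group, BBC3 (59 to 151 counts) and BCL2A1 (113 to 404 counts) had the largest SE of the members in HL-60 against control, and gene counts do not separate splice forms.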
